A study of Rattus norvegicus with 8 samples.

Results

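The genes described here encode semaphorins, Slits and netrins, which are guidance ligands, and plexins, Robo proteins and Unc5 proteins, which are receptors for them. They were taken from the gene count table by name: all rows named as a semaphorin of class 3 to 7, a plexin, Slit1 to Slit3, Robo1 to Robo4, a netrin or netrin-G, or Unc5a to Unc5d. That gave 45 of the 37209 gene rows, of which 29 code for ligands and 16 for receptors. The rule reads names and no measured value, but it was set with earlier results of these data known. Of the 45 rows, 37 passed a filter on low counts and were tested (27 ligands and 10 receptors), and the other 8 are given by their counts.

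RNA was sequenced from 4 vein grafts and 4 control jugular veins from outbred rats of the Sprague Dawley (SD) strain. In the grafted animals the left common carotid artery was divided and its ends were turned over cuffs, so that the grafted vein carried arterial blood. Grafts were taken 1 week after the operation, and the control was the animal's own jugular vein of the other side, untreated by any agent named in the labels. Sex, age and genotype of the animals are not stated in the labels.

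Guidance ligands bind receptors on the surface of a neighbouring or distant cell and steer its movement, adhesion and branching, mostly by changing its actin skeleton. They were first described in growing axons, and many also act on endothelial cells, smooth muscle and leukocytes. Class 3 semaphorins are secreted and signal through a neuropilin and a plexin, the other semaphorin classes used here sit on the cell surface and mostly bind plexins directly, Slits bind Robo receptors, and netrins bind Dcc, Neo1 and Unc5 receptors.

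Total counts per library ran from 5981520 in control 4 to 16061189 in graft 1, and 3 counts corresponded to 0.182 to 0.56 CPM (a gene's count over the TMM-scaled size of its library). The guidance rows held 15416 to 46637 counts per library. The extraction protocol in the labels names another tissue, prefrontal cortex. The 7 neuron markers examined summed to only 1.03 to 4.18 CPM, with Neurod6 at 0 in every library, while the 7 smooth muscle markers (Acta2 and Myh11 among them) summed to 11970 to 19700 CPM in the controls. The same smooth muscle markers summed to 1766 to 3406 CPM in the grafts, and all 7 fell. Endothelial markers (7, such as Pecam1, Cdh5 and Vwf) summed to 3080 to 4760 CPM in the controls and 1388 to 1718 CPM in the grafts, and 4 of them fell. Macrophage markers (7, such as Csf1r and Cd68) went from 139 to 193 CPM in the controls to 736 to 1184 CPM in the grafts, and all 7 rose. All 7 T cell markers rose too (39.4 to 70.0 CPM against 247 to 384 CPM). Most of that T cell sum was Cd4, at 34.9 to 54.9 CPM per control and 209.5 to 332 CPM per graft. Cd3e, Cd3g and Cd3d were rarer, with graft means of 9.22, 4.38 and 1.665 CPM against control means of 1.33, 0.654 and 0.206 CPM. Controls 3 and 4 stood apart in Schwann cell markers (6, Sox10 among them), with 2160 and 2046 CPM against 254 and 336 CPM in controls 1 and 2, and in adipocyte markers (7, such as Adipoq), with 1781 and 2153 CPM against 415 and 676 CPM. Grafts held 504 to 661 CPM of the Schwann cell markers and 138 to 192 CPM of the adipocyte markers. Ncam1, which neurons and other cells make too, carried much of that Schwann cell sum in the grafts, and the 5 markers without it summed to 209, 138, 336 and 173 CPM in grafts 1 to 4, against 233, 314, 2106 and 1999 CPM in controls 1 to 4. Of the 6 mesothelium markers, Msln and Wt1 had no counts in any control and rose to 43.7 to 71.5 CPM and 2.97 to 3.98 CPM in the grafts, while Upk3b had 1 count in all. Of the 7 fibroblast markers, Dcn, Col1a1 and Col3a1 fell and Lum rose, and the list summed to 82080 to 137100 CPM in the controls and 33150 to 73140 CPM in the grafts. The sum of the 6 skeletal muscle markers set control 3 apart, with 1120 CPM against 29.2 to 270 CPM in the other libraries. The 5 markers of brain glia summed to 21.8 and 15.3 CPM in controls 3 and 4 and to 0.150 to 7.92 CPM in the other libraries. Mag carried most of the sum in controls 3 and 4, with 12.8 and 11.01 CPM. Aqp4 added 7.36 CPM in control 3 and 0.187 CPM in control 4, and Gfap 1.51 and 4.11 CPM. Mog stood at 0.167 and 0 CPM there, and Olig2 had no counts in either. Because these are whole pieces of tissue, a change in the number of cells of a type and a change in RNA per cell cannot be told apart for any gene below. The part of these shifts in cell markers in the results was not tested. Values with a library left out do not test it either. The smooth muscle, macrophage and T cell sums of every graft lay apart from those of every control. The labels do not say that each library came from its own animal, so p-values measure only the spread between these libraries.

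More ligands fell than rose in the grafts, and more receptors rose than fell. Of the 27 tested ligands, 11 fell and 5 rose, while 11 missed the threshold. Their median log2 fold change (graft minus control) was -0.16. Among the 5 that rose, Ntn3 passed the low-count filter through its graft counts alone. Of the 10 tested receptors, 5 rose and 1 fell, while 4 missed the threshold, and their median was 0.92. "Rose" and "fell" mean an adjusted p under 0.05 by edgeR's quasi-likelihood test with Benjamini-Hochberg adjustment over all 15464 genes tested. Calls were common in this comparison: 42.3% of all tested genes were called, 21.0% rose and 21.3% fell, and the median over all genes was 0.01. Of the 37 tested guidance genes, 22 were called (10 rose, 12 fell), or 59.5%. For 21 of the 37 the groups were fully separated, against 40.6% of all tested genes. Scaling by library totals alone moved the median of all genes to 0.23 and gave 4558 rises and 2164 falls among them (67.8% higher, against 49.7% with TMM factors). Under that scaling 5 ligands rose and 9 fell, and 7 receptors rose and 1 fell. The changes that follow use TMM factors. Of all genes, 43.5% were called with library totals.

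**Figure D1:**
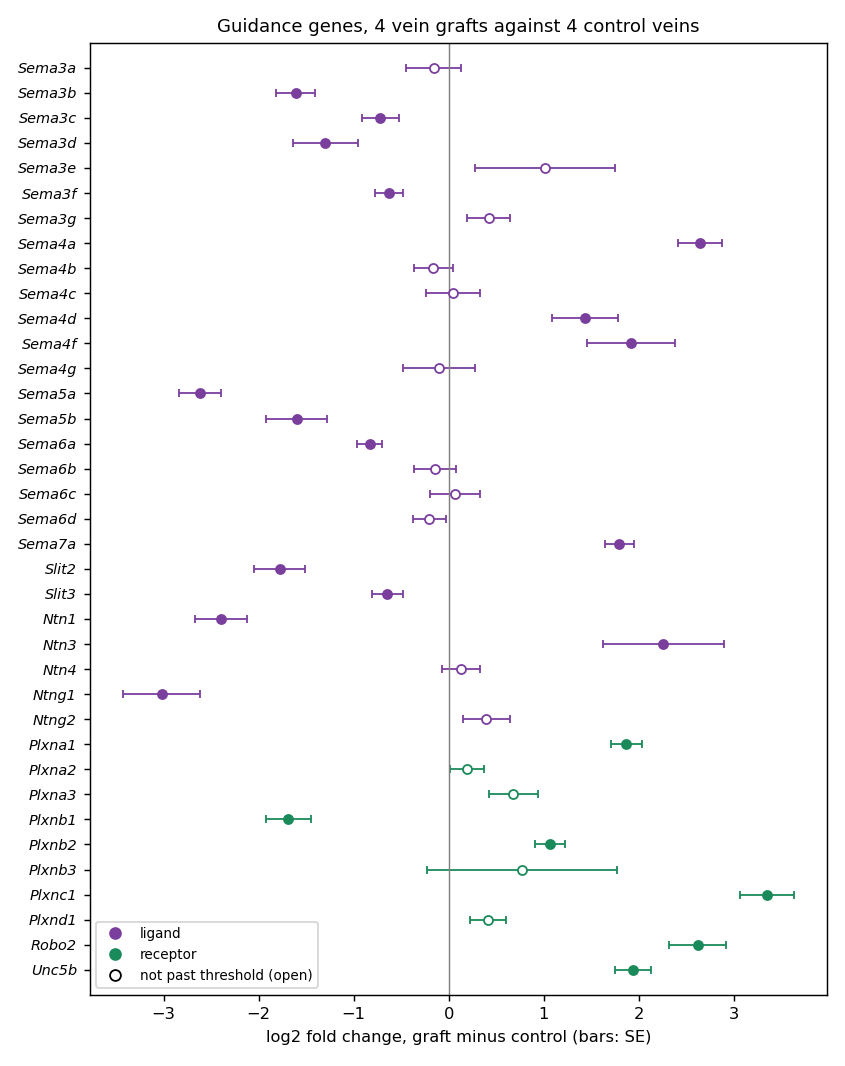
Log2 fold change (graft minus control, x axis) of the 37 tested guidance genes, with ligands in purple and receptors in green. Bars are standard errors, filled points passed the threshold and open points did not, and 9 of the 10 receptors but 11 of the 27 ligands lie to the right of 0.

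Added up over its rows, the ligand signal was lower and the receptor signal higher in every graft than in every control. Ligand rows summed to 2206, 2085, 1995 and 2050 CPM across controls 1 to 4, against 1207, 1095, 1350 and 1264 CPM in grafts 1 to 4. Receptor rows summed to 1138, 1003, 788 and 828 CPM across controls 1 to 4, against 1567, 1679, 1518 and 1730 CPM in grafts 1 to 4. The sum over all 45 rows differed between the groups by less than the SD of the controls, with 3023 ± 249 CPM for controls and 2853 ± 104 CPM for grafts (SD, n = 4). Ligand rows thus held 66.0%, 67.5%, 71.7% and 71.2% of guidance counts across controls 1 to 4, against 43.5%, 39.5%, 47.1% and 42.2% in grafts 1 to 4. This share does not depend on how libraries are scaled, but longer transcripts give more counts and so weigh more in it. Since it is a score over the members, it is given with no test. Sema5a and Slit2, which fell and are abundant, were left out after their values were seen, and the share was then 60.6% ± 3.68 in the controls and 40.3% ± 3.49 in the grafts (SD, n = 4). With Plxnd1, the receptor row with the most counts, left out instead, it was 80.8% ± 0.885 and 54.2% ± 3.25.

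**Figure D2:**
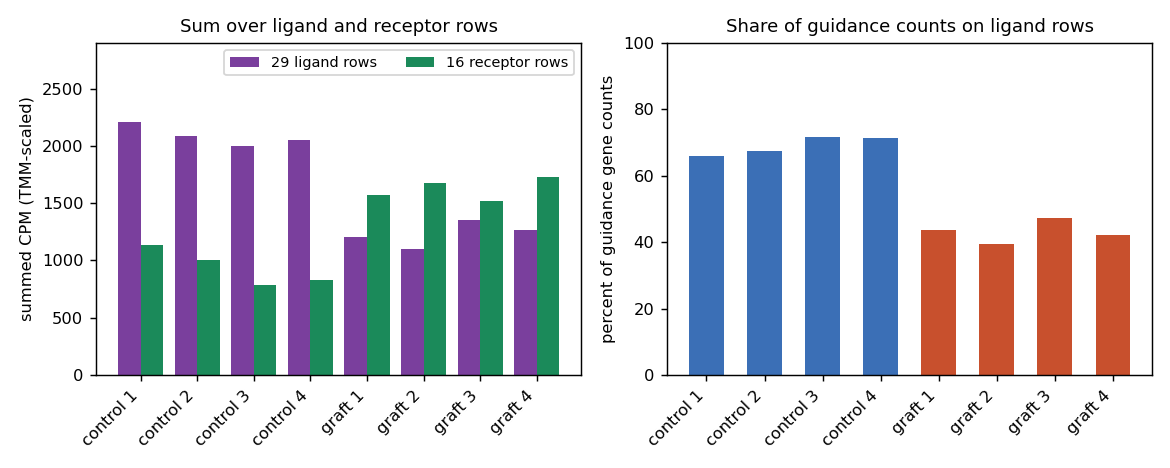
Left, CPM summed over the 29 ligand rows (purple) and the 16 receptor rows (green) in each library. Right, the percentage of all guidance counts on ligand rows, which was 66.0% to 71.7% in the 4 controls (blue) and 39.5% to 47.1% in the 4 grafts (red).

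Among the secreted class 3 semaphorins, 4 of 7 fell and none rose by the edgeR test (0 of 7 likewise at an unadjusted p under 0.05, by DESeq2 and by limma voom). Their median was -0.63, and 57.1% were called, against 42.3% of all tested genes. Sema3b, known as a tumour suppressor in human lung, stood at 106, 81.1, 124 and 128 CPM across controls 1 to 4, against 38.0, 26.1, 46.3 and 33.1 CPM in grafts 1 to 4. The groups did not overlap, and Sema3b fell by 1.61 ± 0.20 in log2 units (± SE here and below; edgeR adjusted p = 0.000276). Sema3c, needed in the mouse embryo for the outflow tract of the heart, stood at 222, 250, 258 and 282 CPM in the control veins, against 175, 134, 104 and 200 CPM in the grafts. Its highest graft lay just under its lowest control, and it fell by 0.72 ± 0.19 (edgeR adjusted p = 0.0144). Sema3f, a repellent that acts through Nrp2, stood at 140, 127, 92.0 and 119 CPM in the control veins, against 73.8, 87.4, 81.1 and 67.4 CPM in the grafts, also without overlap, and fell by 0.63 ± 0.15 (edgeR adjusted p = 0.00776). Sema3d, which helps to place the pulmonary veins in the mouse embryo, stood at 40.7, 73.3, 97.4 and 84.9 CPM in the control veins, against 36.5, 23.0, 16.3 and 44.0 CPM in the grafts. Graft 4 lay above control 1, so the groups overlapped, and Sema3d fell by 1.30 ± 0.34 (edgeR adjusted p = 0.013). Neither Sema3d nor Sema3c passed with controls 3 and 4 left out (edgeR adjusted p = 0.125 and 0.107), and Sema3f did not pass with library totals alone (edgeR adjusted p = 0.0589).

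The remaining class 3 genes did not pass the test. Sema3g, made by endothelium, was the most abundant of them by CPM, with 16.0, 20.2, 31.9 and 28.9 CPM across controls 1 to 4, against 31.6, 34.3, 37.8 and 25.7 CPM in grafts 1 to 4. Controls 3 and 4 overlapped with the grafts while controls 1 and 2 lay below them, and with controls 3 and 4 left out Sema3g passed (log2 fold change of 0.84, edgeR adjusted p = 0.0188, against 0.42 and 0.165 with all libraries). Sema3a, which repels axons through Nrp1, averaged 29.0 ± 4.72 CPM over controls and 26.0 ± 10.4 CPM over grafts (SD, n = 4), and graft 3 was the lowest of all with 12.6 CPM. The interval of its log2 fold change ran from -0.72 to 0.41 (95%).

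Sema3e, which binds Plxnd1 without a neuropilin, varied more between grafts than between groups. It stood at 3.52, 6.17, 13.6 and 10.3 CPM across controls 1 to 4, against 22.3, 3.15, 37.4 and 4.62 CPM in grafts 1 to 4 (log2 fold change of 1.01 ± 0.74, edgeR adjusted p = 0.298). Grafts 1 and 3 were above every control, and grafts 2 and 4 lay near the lowest controls. The receptor Plxnb3, known from neurons and glia, had the same order in the grafts, with 9.71, 0.751, 39.0 and 2.25 CPM in grafts 1 to 4 and 4.04, 2.39, 14.2 and 9.71 CPM in controls 1 to 4. Its log2 fold change was 0.77 ± 1.00 (edgeR adjusted p = 0.566). L1cam, an adhesion molecule of axons and Schwann cells that joins neuropilin receptors, stood at 18.3, 3.23, 44.6 and 5.46 CPM in the grafts, again highest in graft 3 and then graft 1. Sox10, the transcription factor that defines Schwann cells, stood at 19.1, 1.50, 50.3 and 3.85 CPM in grafts 1 to 4 and at 4.50, 3.48, 21.4 and 20.9 CPM in controls 1 to 4. These 4 genes thus ranked the grafts alike, and each was higher in controls 3 and 4 than in controls 1 and 2. The summed Schwann cell markers did not follow in the same proportion: controls 3 and 4 had 2160 and 2046 CPM, against 661, 526, 616 and 504 CPM in grafts 1 to 4, of which Ncam1, the member that rose, made up 280 to 452 CPM in the grafts. The pattern was noticed after the values were seen and was not tested. Without graft 3 the log2 fold change of Plxnb3 was -0.81 (edgeR adjusted p = 0.489).

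**Figure D3:**
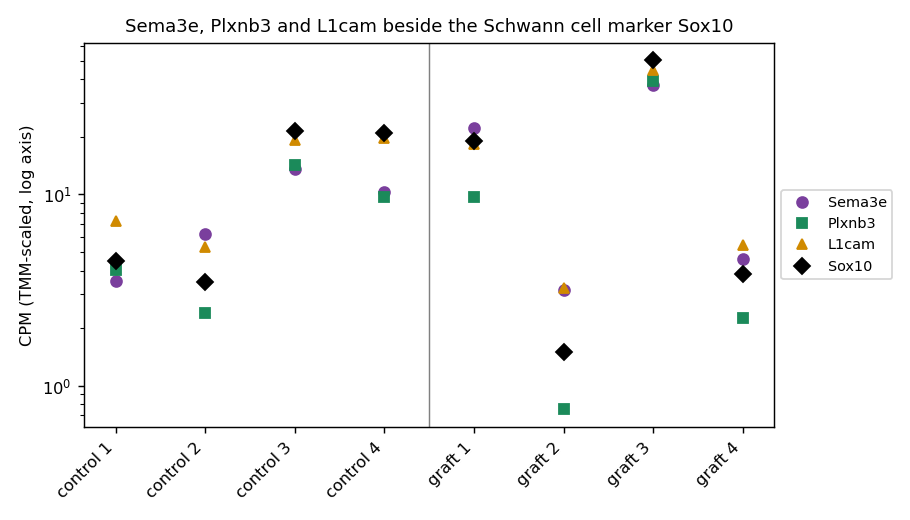
CPM (log axis) of Sema3e, Plxnb3 and L1cam with the Schwann cell gene Sox10 in each of the 8 libraries. All 4 genes are highest in graft 3 (37.4, 39.0, 44.6 and 50.3 CPM).

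Semaphorins with a membrane anchor went in different directions by class. In class 4, 3 of 6 rose and none fell by the edgeR test (0 of 6 likewise at an unadjusted p under 0.05, by DESeq2 and by limma voom). The class had a median of 0.74 and 50% called, against 42.3% of all tested genes. Sema4a, which in mice is carried by dendritic cells and macrophages and helps to prime T cells, stood at 9.81, 7.97, 7.61 and 7.47 CPM across controls 1 to 4, against 32.8, 67.3, 57.4 and 49.0 CPM in grafts 1 to 4. All grafts lay above all controls, and Sema4a rose by a log2 fold change of 2.64 ± 0.23 (edgeR adjusted p = 4.18e-05), or 6.29-fold on mean CPM. Sema4d, the lymphocyte semaphorin also called CD100, stood at 33.8, 26.6, 20.7 and 12.7 CPM in the control veins, against 37.6, 64.8, 101 and 52.8 CPM in the grafts. Graft 1 lay barely above control 1. Sema4d rose by 1.44 ± 0.35 (edgeR adjusted p = 0.00862) and did not pass with controls 3 and 4 left out (log2 fold change of 1.08, edgeR adjusted p = 0.0613). Sema4f, known from the nervous system, was rare, with 1.12, 1.09, 2.09 and 0.933 CPM in the controls and 3.76, 4.21, 9.68 and 2.76 CPM in the grafts, where graft 3 was again highest. It rose by 1.92 ± 0.46 (edgeR adjusted p = 0.0085). Macrophage and T cell markers rose in the same libraries, as given above. Sema4c, a ligand of Plxnb2, had the most CPM among the class 4 genes that did not pass: it stood at 77.0, 59.4, 54.9 and 43.1 CPM in the control veins, against 71.6, 43.5, 90.5 and 36.9 CPM in the grafts, with the groups interleaved. Sema4b and Sema4g had log2 fold changes of -0.16 and -0.10 and did not pass.

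The class 5 semaphorins, large membrane proteins that carry thrombospondin repeats, both fell. Sema5a was even across the controls, with 406, 414, 444 and 426 CPM in controls 1 to 4, and stood at 53.3, 54.5, 63.8 and 104 CPM in grafts 1 to 4. It fell by 2.62 ± 0.22 in log2 units (edgeR adjusted p = 3.73e-05), a 6.15-fold lower mean. Sema5b stood at 38.6, 27.7, 16.4 and 14.9 CPM in the control veins, against 8.68, 8.19, 5.76 and 9.63 CPM in the grafts, without overlap, and fell by 1.60 ± 0.32 (edgeR adjusted p = 0.00315). Controls 1 and 2 were the higher ones for Sema5b. In the same libraries all 7 smooth muscle markers, all 7 adipocyte markers and 4 of the 7 endothelial markers fell, and none of these rose. Myh11, the smooth muscle myosin, went from 6001 to 9817 CPM in the controls to 394 to 919 CPM in the grafts. Its fall was the largest among the smooth muscle markers. The part of any cell type in the falls of Sema5a and Sema5b was not tested.

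Of the class 6 semaphorins, membrane proteins that bind A-type plexins, 1 of 4 fell (25% called, against 42.3% of all tested genes). Sema6a, a ligand of Plxna2, stood at 152, 204, 169 and 163 CPM across controls 1 to 4, against 90.0, 85.0, 108 and 102 CPM in grafts 1 to 4. All grafts lay below all controls, and Sema6a fell by 0.83 ± 0.13 (edgeR adjusted p = 0.000895). Sema6d, a ligand of Plxna1, stood at 94.3, 104, 99.6 and 86.0 CPM in the control veins, against 79.7, 72.9, 116 and 65.2 CPM in the grafts. Graft 3 was the exception above the controls. Without it Sema6d passed as lower (log2 fold change of -0.39, edgeR adjusted p = 0.0327), whereas with all libraries it stood at -0.21 (edgeR adjusted p = 0.373). Sema6b and Sema6c overlapped between the groups, at log2 fold changes of -0.14 and 0.06.

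Sema7a and its plexin rose together. Sema7a, which a lipid anchor holds on the membrane and which binds Plxnc1 and integrins with a beta 1 chain, stood at 18.5, 12.8, 16.6 and 17.4 CPM across controls 1 to 4, against 58.6, 51.3, 66.2 and 50.6 CPM in grafts 1 to 4. It rose by a log2 fold change of 1.80 ± 0.16 (edgeR adjusted p = 4.37e-05), or 3.48-fold on mean CPM. Plxnc1, a plexin that leukocytes carry, stood at 8.91, 5.28, 7.03 and 3.17 CPM in the control veins, against 51.7, 80.0, 66.9 and 56.9 CPM in the grafts. Every graft was far above every control, and the rise of 3.35 ± 0.28 (edgeR adjusted p = 3.93e-05), or 10.5-fold on mean CPM, was the largest log2 fold change of the 37 tested guidance genes. Among the cell markers Csf1r, the macrophage growth factor receptor, stood at 65.0 to 94.3 CPM in the controls and 342 to 520 CPM in the grafts. The integrin chains Itgb1 and Itga1 that bind Sema7a went the other way and fell, Itgb1 from 1768 ± 290 to 1170 ± 271 CPM and Itga1 from 1934 ± 273 to 687 ± 124 CPM (SD, n = 4; edgeR adjusted p = 0.0442 and 0.000257).

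The promoters of the ligand and receptor that rose together, Sema7a and Plxnc1, and of the largest rise and the largest fall among the other ligands with an entry, Sema4a and Ntng1, are printed from RefSeq (assembly GRCr8, another build than the Rnor_6.0 of the counts), 5′ to 3′ on the gene's strand. Each holds 250 bases before the annotated start and 50 after it. Capitals mark matches, on either strand, to the letters GGGCGG (the GC box bound by Sp1), GGAAGT (the core bound by PU.1 and other ETS factors), TGANTCA (AP-1), CCAAT or TATAAA. In Sema4a a match to GGAAGT and one to GGGCGG overlap.
Plxnc1, chr7:31430556-31430855, minus strand: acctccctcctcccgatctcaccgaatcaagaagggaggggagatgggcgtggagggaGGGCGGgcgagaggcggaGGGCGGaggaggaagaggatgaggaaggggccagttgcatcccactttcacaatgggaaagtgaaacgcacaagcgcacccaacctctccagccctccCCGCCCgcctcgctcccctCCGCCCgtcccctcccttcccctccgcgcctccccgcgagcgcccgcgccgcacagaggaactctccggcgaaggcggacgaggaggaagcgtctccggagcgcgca
Sema7a, chr8:67244068-67244367, plus strand: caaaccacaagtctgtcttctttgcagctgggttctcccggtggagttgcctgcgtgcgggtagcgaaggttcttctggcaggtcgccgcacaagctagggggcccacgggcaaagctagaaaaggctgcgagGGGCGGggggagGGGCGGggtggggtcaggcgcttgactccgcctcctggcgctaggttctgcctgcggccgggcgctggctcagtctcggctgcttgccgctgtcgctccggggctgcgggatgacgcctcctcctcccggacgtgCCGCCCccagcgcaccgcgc
Sema4a, chr2:176212209-176212508, minus strand: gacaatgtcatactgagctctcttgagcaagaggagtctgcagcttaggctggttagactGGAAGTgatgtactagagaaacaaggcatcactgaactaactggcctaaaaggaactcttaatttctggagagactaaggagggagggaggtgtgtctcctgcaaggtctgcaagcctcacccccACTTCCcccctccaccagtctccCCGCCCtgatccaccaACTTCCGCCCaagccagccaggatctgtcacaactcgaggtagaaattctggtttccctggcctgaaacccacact
Ntng1, chr2:200514982-200515281, minus strand: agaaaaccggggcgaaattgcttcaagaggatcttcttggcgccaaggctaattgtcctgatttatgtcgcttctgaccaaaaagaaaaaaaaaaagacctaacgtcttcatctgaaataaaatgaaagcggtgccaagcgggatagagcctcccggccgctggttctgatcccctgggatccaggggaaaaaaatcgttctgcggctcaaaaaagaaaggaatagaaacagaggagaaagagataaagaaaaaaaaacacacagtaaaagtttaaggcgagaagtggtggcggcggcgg
Plxnc1 held 4 matches to the GC box and Sema7a 3, Sema4a held 3 to the ETS core and 2 to the GC box, and none of these letters were found in the Ntng1 window. Of 33 members with a promoter in the table, 32 had a single entry. Among these the GC box stood in 6 of 8 promoters of genes that rose and 2 of 7 of genes that fell. It stood in 9 of 13 of genes that did not pass, in 3 of 4 of genes not tested, and in 33.1% of all 33469 promoters. The ETS core stood in 1 of 8, 3 of 7, 3 of 13 and 0 of 4 of them, and in 22.6% of all promoters. AP-1 letters stood in 7.33% and TATAAA in 14.2% of all promoters and in none of these 32. CCAAT stood in 1 of 8, 2 of 7, 4 of 13 and 0 of 4, and in 37.5% of all promoters. The promoters of the genes that rose also had more G and C bases, with a median of 68.7% against 53.3% for those that fell and 51.7% for all, and the GC box consists of these bases. This median was not computed for genes that did not pass or were not tested. A high G and C content is thus not shown to be particular to the genes that rose.

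The tested Slit ligands, Slit2 and Slit3, fell, while Robo2, the only Robo row under the naming rule with enough counts to test, rose. Slit2 stood at 362, 185, 179 and 184 CPM across controls 1 to 4, against 73.7, 59.4, 49.8 and 81.7 CPM in grafts 1 to 4. Control 1 was far above the other controls, which lay close together, and all controls were above all grafts. Slit2 fell by 1.78 ± 0.26 (edgeR adjusted p = 0.00065), and by 1.47 without control 1 (edgeR adjusted p = 0.000268). Slit3 stood at 204, 258, 170 and 237 CPM in the control veins, against 130, 112, 155 and 159 CPM in the grafts. Its highest graft lay close under its lowest control, and it fell by 0.65 ± 0.17 (edgeR adjusted p = 0.0113), a call it lost with library totals alone (edgeR adjusted p = 0.0809). Slit1, the form best known from the brain, had 14 counts over all controls and 8 over all grafts and was not tested.

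Robo2, a Slit receptor of axons and of the developing kidney, stood at 9.96, 11.6, 12.8 and 12.7 CPM across controls 1 to 4, against 76.9, 34.6, 72.1 and 104 CPM in grafts 1 to 4. The controls lay close together and the grafts were spread out, with graft 2 lowest, yet all grafts were above all controls. Robo2 rose by 2.62 ± 0.30 (edgeR adjusted p = 0.000159), or 6.13-fold on mean CPM. Per library, Robo2 had 0.0275 to 0.0715 counts for each count of Slit2 in the controls and 0.583 to 1.45 in the grafts. The row named Robo1, a Slit receptor of many tissues, held 1 count in all 8 libraries together, and Robo3 held 15. The row named Robo4, the Robo protein of endothelium, held 20 counts in all. RefSeq now gives the symbol Robo4 to the gene that the table lists as LOC100911068, a row outside the naming rule, and that row stood at 17.3, 14.5, 18.7 and 13.6 CPM across controls 1 to 4, against 13.8, 14.1, 18.7 and 14.4 CPM in grafts 1 to 4. The 2 groups overlapped there, and the interval of the log2 fold change ran from -0.41 to 0.26 (95%). The near absence of reads on the rows named Robo1 and Robo4 therefore cannot be read as absence of these receptors, since which transcripts the authors' annotation gave to each row was not examined.

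Netrins, laminin-like ligands, split by member: of 5 tested, 2 fell and 1 rose, and the other 2 missed the threshold. That made 60% called, against 42.3% of all tested genes. Ntn1, which attracts through Dcc and repels through Unc5 receptors, stood at 35.7, 33.1, 19.2 and 23.7 CPM across controls 1 to 4, against 5.22, 3.46, 5.28 and 7.25 CPM in grafts 1 to 4, without overlap. It fell by 2.39 ± 0.28 (edgeR adjusted p = 0.000168), a 5.27-fold lower mean. Ntng1, a netrin-G that a lipid anchor holds on the membrane and that binds the adhesion protein Lrrc4c and not the netrin receptors, stood at 33.9, 37.1, 23.1 and 29.7 CPM in the control veins, against 6.19, 2.33, 5.12 and 1.54 CPM in the grafts. Its fall of 3.02 ± 0.40 (edgeR adjusted p = 0.000386), or 8.16-fold on mean CPM, was the largest of the 37 tested guidance genes. The row of its partner Lrrc4c held no counts in any library, which at these depths allows up to 0.182 to 0.56 CPM by library (counting error only). Ntng2, its closest relative, stood at 53.7, 35.5, 29.0 and 36.4 CPM in the control veins, against 45.9, 35.8, 73.4 and 48.3 CPM in the grafts, with the groups interleaved (log2 fold change of 0.39, edgeR adjusted p = 0.229). Counts of Ntng2 for each count of Ntng1 went from 0.957 to 1.59 in the controls to 7.41 to 31.3 in the grafts. Ntn4, a netrin of basement membranes, stood at 13.8 ± 2.65 and 15.1 ± 2.90 CPM (SD, n = 4) and did not pass. Ntn3 was near the limit of detection, with 0.824, 0.199, 0.167 and 0 CPM (15 counts in all) in the controls and 1.64, 2.18, 1.76 and 1.16 CPM (96 counts) in the grafts. It rose by 2.26 ± 0.63 (edgeR adjusted p = 0.0174), and lost the call when control 2, control 3 or both control 3 and control 4 were left out (edgeR adjusted p = 0.051, 0.0522 and 0.0846). Ntn3 passed the low-count filter only through the grafts, the group where it was high, so the filter itself favoured a rise. Without control 1, which held 11 of its 15 control counts, the log2 fold change of Ntn3 was 3.47 (edgeR adjusted p = 0.00194). Ntn5 had no counts in the controls and 5 in the grafts.

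Unc5b, the Unc5 receptor of arterial and sprouting endothelium, was the single member of its family with enough counts to test. It stood at 33.6, 28.3, 26.1 and 32.1 CPM across controls 1 to 4, against 149, 120, 80.1 and 110 CPM in grafts 1 to 4, all far above the controls, and the rise of 1.94 ± 0.19 (edgeR adjusted p = 6.99e-05) was 3.83-fold on mean CPM. The endothelial markers fell or did not pass in the same libraries, with Cdh5 at 158 to 265 CPM in the controls and 191 to 216 CPM in the grafts. All 7 macrophage markers and all 7 T cell markers rose there. Which cells made Unc5b, and the part of any cell type in its rise, was not tested. Counts of Unc5b for each count of Ntn1 went from 0.855 to 1.36 in the controls to 15.2 to 34.8 in the grafts. Unc5a and Unc5c, neuronal netrin receptors, were rare: Unc5a had 52 counts in the controls and 12 in the grafts, and Unc5c 90 and 22, of which control 1 alone had 66. With no filter on low counts they were called as lower (log2 fold changes of -2.51 and -2.31, edgeR adjusted p = 0.0385 and 0.0474), which raised the receptors that fell from 1 to 3 (of all genes, 26.8% were called there). The count was 2 without control 2, graft 2 or graft 3, where Unc5a entered the test and 35.8%, 35.3% and 36.5% of all genes were called. It was also 2 with controls 3 and 4 left out, where Unc5c entered and 29.1% of all genes were called. Unc5a entered the test without graft 1 and without graft 4 too, but did not pass there (edgeR adjusted p = 0.0563 and 0.0683). Unc5d had no counts in any library.

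Among the plexins, 3 of 8 rose and 1 fell (50% called, against 42.3% of all tested genes), with a median of 0.72. Plxna1, which pairs with neuropilins for class 3 semaphorins and binds Sema6d, stood at 89.1, 72.4, 58.6 and 66.6 CPM across controls 1 to 4, against 250, 287, 213 and 298 CPM in grafts 1 to 4. The groups were well apart, and it rose by 1.87 ± 0.16 (edgeR adjusted p = 4.41e-05), or 3.66-fold on mean CPM. The other A-type plexins did not pass. Plxna2 stood at 79.4, 91.2, 114 and 121 CPM in the control veins, against 106, 102, 150 and 106 CPM in the grafts. Plxna3 stood at 17.2 ± 6.51 and 27.7 ± 6.14 CPM (SD, n = 4), with a log2 fold change of 0.68 and an edgeR adjusted p of 0.0604. It passed without control 1, its highest control (0.98, edgeR adjusted p = 0.00366), with library totals alone (0.90, edgeR adjusted p = 0.0197) and by DESeq2 (0.68, adjusted p = 0.0355). The table lists the fourth A-type plexin as Plxna4a, outside the naming rule, and its groups overlapped at 43.7 ± 19.5 and 34.5 ± 12.2 CPM.

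Of the B-type plexins, receptors of class 4 semaphorins, Plxnb1 fell, Plxnb2 rose and Plxnb3, described above, did not pass. Plxnb1, the main receptor of Sema4d, stood at 115, 94.9, 62.9 and 71.9 CPM across controls 1 to 4, against 27.9, 24.2, 35.4 and 19.7 CPM in grafts 1 to 4. All grafts were below all controls, and it fell by 1.69 ± 0.23 (edgeR adjusted p = 0.000455). Plxnb2, which binds Sema4c and Sema4d, stood at 196, 158, 143 and 150 CPM in the control veins, against 308, 399, 275 and 371 CPM in the grafts. It rose by 1.06 ± 0.16 (edgeR adjusted p = 0.000676), again without overlap. Each library had 1.66 to 2.27 counts of Plxnb2 for each count of Plxnb1 in the controls and 7.78 to 18.8 in the grafts. These ratios are free of library scaling, but they carry the lengths of the transcripts and give no level of one gene against the other. Plxnd1, the receptor of Sema3e in endothelium and a flow sensor there in mice, stood at 569, 521, 334 and 345 CPM across controls 1 to 4, against 551, 606, 558 and 639 CPM in grafts 1 to 4. Controls 1 and 2 lay in or near the range of the grafts and controls 3 and 4 below it, so the groups overlapped (log2 fold change of 0.41, edgeR adjusted p = 0.112). Plxnd1 passed without control 1 (0.55, edgeR adjusted p = 0.0295) and with library totals alone (0.64, edgeR adjusted p = 0.0221).

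**Figure D4:**
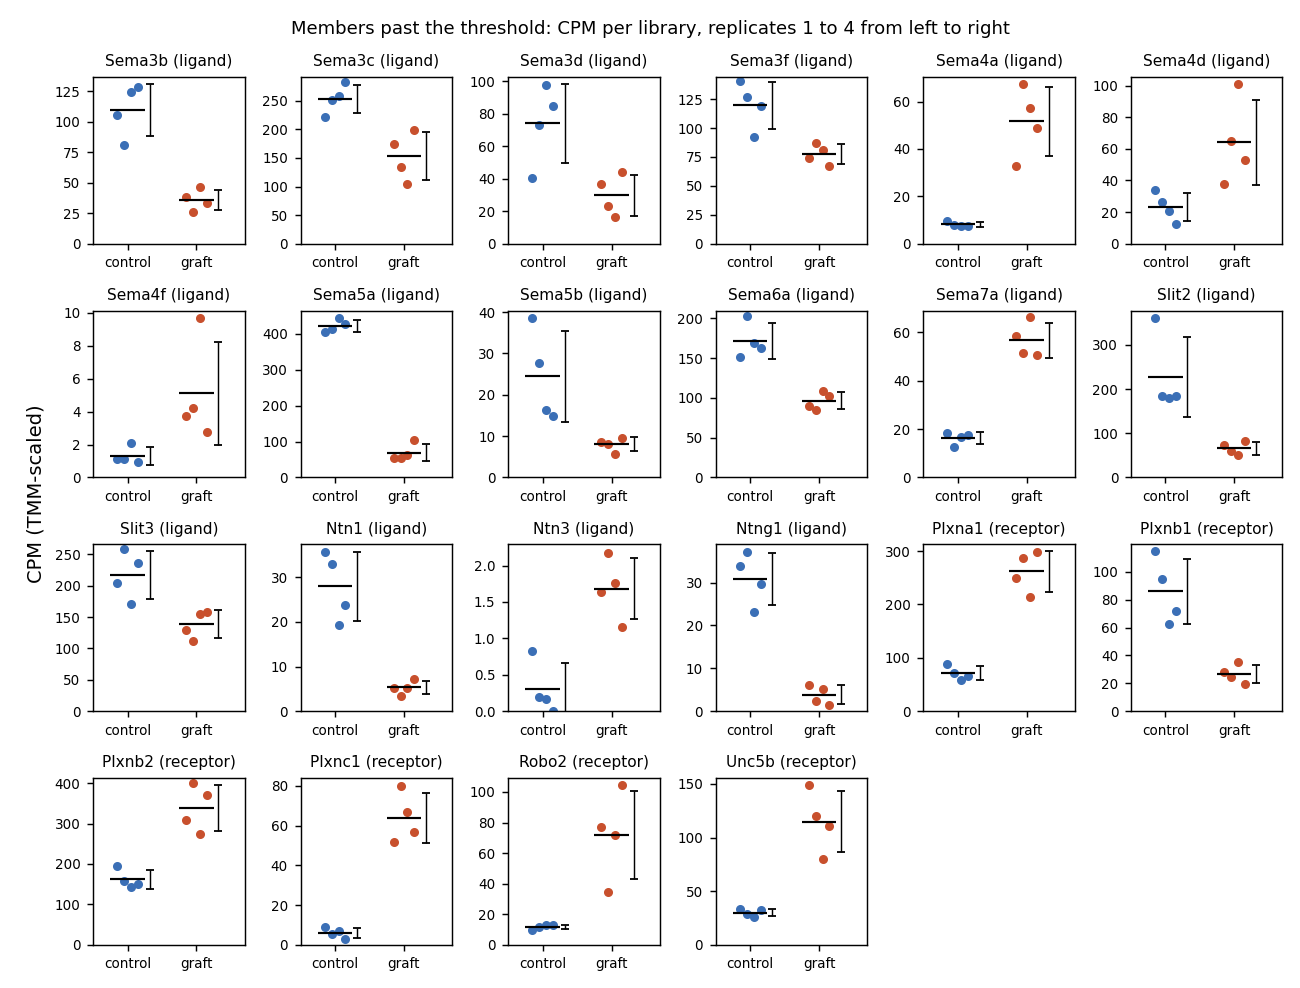
CPM (y axis of each panel, from 0) of the 22 guidance genes past the threshold in the 4 control libraries (blue) and 4 graft libraries (red), replicates 1 to 4 from left to right, with the mean (line) and SD (bar, drawn down to 0 at most). The groups overlap in 1 panel, that of Sema3d.

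Partner genes of these pathways were counted from a list of 46 coreceptors, alternative ligands and signal carriers. Of the 43 tested, 11 rose, 13 fell and 19 did not pass (55.8% called, against 42.3% of all tested genes), with a median of -0.05. With library totals alone 17 rose and 11 fell (60.7% higher, against 45.8% with TMM factors). The coreceptors of class 3 semaphorins, which also bind VEGF, rose: Nrp1 stood at 84.1, 79.9, 75.0 and 69.1 CPM across controls 1 to 4, against 140, 132, 112 and 172 CPM in grafts 1 to 4 (log2 fold change of 0.85 ± 0.14, edgeR adjusted p = 0.00135). Nrp2 stood at 144, 118, 177 and 157 CPM in the control veins, against 322, 380, 225 and 296 CPM in the grafts (1.04 ± 0.18, edgeR adjusted p = 0.00174). Neither coreceptor overlapped between the groups, and both went opposite to the 4 class 3 ligands that fell. The netrin receptors Neo1 and Dcc fell. Neo1 went from 239 ± 11.1 to 155 ± 34.0 CPM (SD, n = 4; -0.62 ± 0.16, edgeR adjusted p = 0.0127), and Dcc was rare, at 1.79 ± 1.35 and 0.258 ± 0.0764 CPM (-2.66 ± 0.60, edgeR adjusted p = 0.00602). Dcc passed the low-count filter only through the controls, the group where it was high, so the filter itself favoured a fall.

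The partner genes with the smallest p among the rises were Gpc1, Srgap2, Cd72 and Srgap3. Gpc1, a heparan sulfate proteoglycan that binds Slit proteins, went from 22.4 to 34.9 CPM in the controls to 147 to 286 CPM in the grafts, graft 1 being highest (2.76 ± 0.24, edgeR adjusted p = 4.41e-05). The GTPase-activating proteins Srgap2 and Srgap3, which bind the cytoplasmic tail of Robo receptors, rose by 1.14 ± 0.15 and 1.13 ± 0.18 (edgeR adjusted p = 0.000354 and 0.00102). Cd72, the Sema4d receptor of B cells and some macrophages, went from 2.47 ± 1.15 to 14.5 ± 4.73 CPM (SD, n = 4; 2.59 ± 0.38, edgeR adjusted p = 0.000665). With the smallest p among the falls were Rgmb, a ligand of Neo1 (101 ± 9.77 to 42.3 ± 4.24 CPM; -1.26 ± 0.12, edgeR adjusted p = 6.24e-05), Itga1, given above, and then Arhgef12 and Mical3. Arhgef12, an exchange factor that links B-type plexins to RhoA, went from 497 ± 37.9 to 278 ± 17.0 CPM, while Arhgef11, its relative with the same role, stood at 135 ± 9.70 and 134 ± 8.28 CPM and was added here after its values were seen. Mical3, of a family of enzymes that act on actin downstream of plexins, fell by 0.91 ± 0.17 (edgeR adjusted p = 0.00244).

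**Figure D5:**
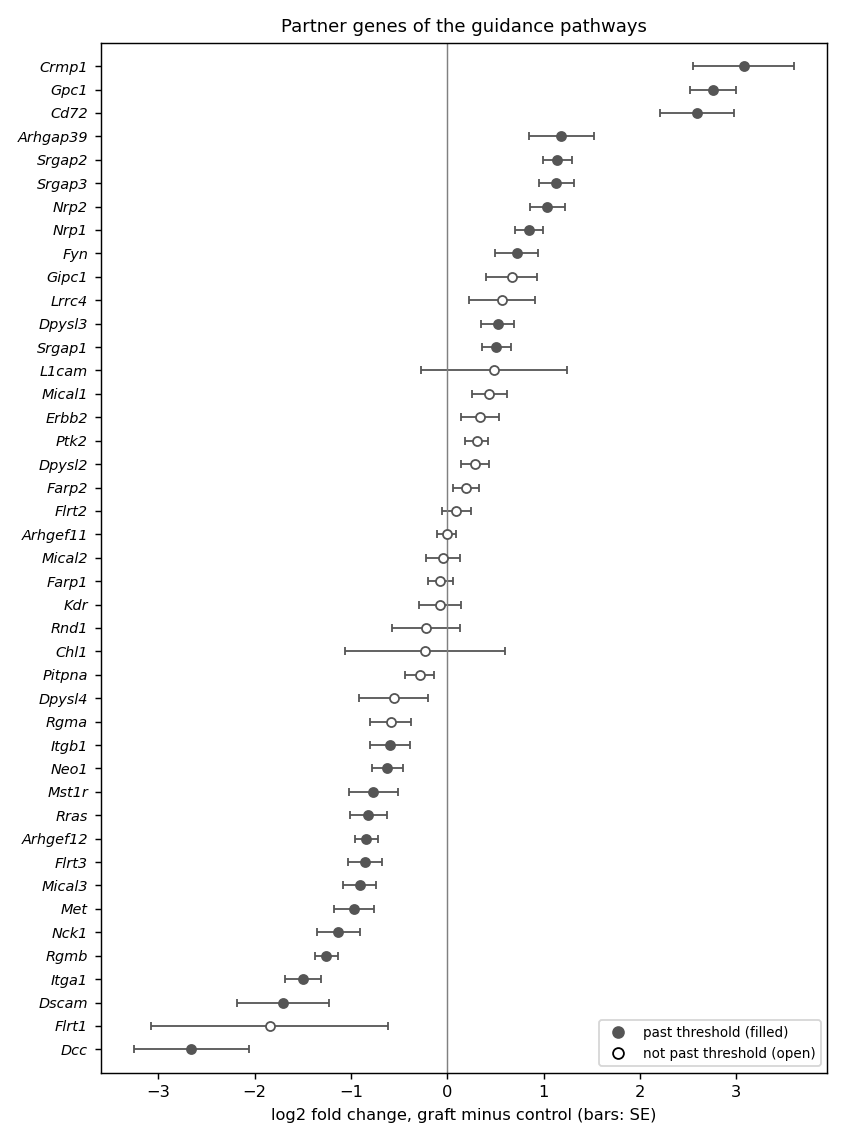
Log2 fold change (graft minus control, x axis) of the 43 tested partner genes in order of size, with SE bars. Filled points passed the threshold (11 to the right of 0 and 13 to the left) and open points did not.

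Set side by side, ligand and receptor pairs of these families in which both genes passed gave several combinations. Pairs with a gene that did not pass, such as Sema6a with Plxna2 and Sema3e with Plxnd1, are left out, and the list is not complete. Ligand and receptor rose in Sema7a with Plxnc1, in Sema4d with Plxnb2 and in Sema4d with Cd72. The ligand fell and the receptor rose in Slit2 and Slit3 with Robo2, in Ntn1 with Unc5b, and in Sema3b, Sema3c, Sema3d and Sema3f with the neuropilins, beside which Plxna1 rose too. The ligand rose and the receptor fell in Sema4d with Plxnb1 and in Sema7a with the integrin subunits Itga1 and Itgb1. Both fell in Ntn1 with Neo1, in Ntn1 with Dcc and in Rgmb with Neo1. Dcc passed the low-count filter through its control counts alone. A pair counted here is one of known binding partners, and the data hold no measure of binding or of which cells made which transcript.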

How the data were processed

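The submitters' processing notes name HISAT2 2.0.4 and the rat build Rnor_6.0. The counter, the annotation and any use of strand are not given in these sources, so reads of overlapping antisense genes are not told apart. The authors deposited raw counts, whole numbers for every gene, in 8 columns named by sample titles, which gave the groups. No library was a copy of another: within groups all pairs differed by more than counting noise (chi-square per degree of freedom from 24.5 to 118).

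The analysis used edgeR 4.0.16 in R 4.3.3. There filterByExpr with a minimum count of 10 kept 15464 genes, libraries were scaled by TMM factors (0.897 to 1.19), and glmQLFit and glmQLFTest compared grafts with controls, unpaired. Benjamini-Hochberg adjustment covered every tested gene, and calls needed an adjusted p under 0.05. The standard error is the absolute log2 fold change over the square root of F, and 95% intervals use it with the normal distribution. CPM use TMM-scaled library sizes. DESeq2 1.42.0, limma 3.58.1 (voom), other scalings, no filter, a replicate block and left-out libraries were the 16 alternatives. The procedure was tested on simulated counts.

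All 45 members matched a current RefSeq symbol by name. For Robo4, RefSeq now gives that symbol to the gene listed as LOC100911068, as given above. The members, the partner list and the cell markers were chosen with earlier results of these data known. One marker of the Schwann cell list is not reported here and is left out of that list's sums. Every member may be named. Values in each library are given for called members and, per family, for the most abundant one that was not called. Among partners, Nrp1, Nrp2, Neo1, Dcc and the 4 smallest p in each direction are named. Itgb1, L1cam, Arhgef11, Lrrc4c, Sema3e and Plxnb3 were described further after their values were seen.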

Additional observations from a re-analysis of the deposited data

Results flagged for a closer look

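In 3 of 74 groups of 4 libraries (37 genes in 2 groups), 1 library lay far from the other 3, with a gap, relative to the group's range, over Dixon's 95% critical value. Chance gives about 1 in 20 groups. Slit2 stood at 362 CPM in control 1 against 179 to 185 CPM in the other controls. Plxna2 stood at 150 CPM in graft 3 against 102 to 106 CPM in the other grafts. Sema4f stood at 2.09 CPM in control 3 against 0.933 to 1.12 CPM in the other controls.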

How the results depend on the processing

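Of 592 values of the 37 tested genes under the 16 alternatives, 548 kept their direction and their side of the threshold, 8 lost the call, 8 gained one and 28 changed sign. Of the 22 called genes, 16 kept the call in every alternative and none changed sign. The counts that moved by over 1.5 times were these: with library totals alone, partner genes that rose numbered 17 and all genes that fell 2164; the receptors that fell numbered 3 with no low-count filter, 2 with controls 3 and 4 left out, and 1 to 2 with 1 library left out. The added receptors, Unc5a and Unc5c, were those that the filter on low counts had kept from the test, and for the other changes the cause was not tested.

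All sign changes were in genes that passed in neither fit. With library totals alone the log2 fold changes were 0.041 for Sema3a, 0.0705 for Sema4b, 0.11 for Sema4g, 0.10 for Sema6b and 0.038 for Sema6d. Limma voom gave -0.23 for Plxnb3, -0.046 for Sema4c and 0.049 for Sema4g. With controls 3 and 4 left out the values were -0.015 for Ntn4, 0.030 for Sema3a, -0.17 for Sema4c, 0.38 for Sema4g and -0.14 for Sema6c. With 1 library left out, the values that crossed 0 ran from -0.00046 to 0.25 for Ntn4, from -0.81 to 1.31 for Plxnb3, from -0.35 to 0.088 for Sema3a, from -0.26 to 0.051 for Sema4b, from -0.20 to 0.23 for Sema4c, from -0.38 to 0.12 for Sema4g, from -0.32 to 0.032 for Sema6b and from -0.12 to 0.30 for Sema6c.

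Sample titles and source names number the libraries differently, so which graft and control came from the same animal is uncertain. By title number, deviations of same-numbered libraries correlated at -0.08, 0.18, 0.064 and 0.044 across genes, which does not settle the pairing. A block by title number may therefore join different animals and is not a paired analysis. With it 11 guidance genes rose and 12 fell, and Plxna3 then passed (0.72, edgeR adjusted p = 0.015). Of all 15464 genes tested with the block, 3042 rose and 2860 fell. The block gave -0.040 for Plxnb3, -0.0135 for Sema4c and 0.0099 for Sema4g, each of the other sign than the unpaired fit. Few counts limit the 8 rows left out by the low-count filter. With no filter, Unc5a and Unc5c passed as lower, and for the rows named Ntn5, Robo1, Robo3, Robo4 and Slit1 no change was detectable at these counts. Unc5d had no counts and was not fitted. Which transcripts the annotation gave to the rows named Robo1 and Robo4 was not examined, so their low counts cannot be laid to depth.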
